A study of Homo sapiens with 6 samples.

Results

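The genes described here encode 10 intermediate filament proteins, chosen by symbol: the type III filaments vimentin (VIM), desmin (DES) and glial fibrillary acidic protein (GFAP), the larger type IV filaments nestin (NES) and synemin (SYNM), the simple-epithelial keratins KRT8, KRT18 and KRT19, and the nuclear lamins LMNA and LMNB1. All 10 had a row among the 24789 rows with values. Their RNA was measured by sequencing in LX-2, an established human cell line derived from hepatic stellate cells. Both groups are thus 1 immortal line grown in serum and not primary cells. One group received a scrambled siRNA and the other an siRNA against AEBP1, each at 50 nM by lipid transfection for 48 hours, with 3 libraries per group. The sources used here do not say whether the 3 came from separate transfections, so p-values measure only how these samples vary, and that variation may be technical.

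Intermediate filaments are rope-like polymers built from coiled-coil rods. Vimentin is the usual filament of mesenchymal cells, desmin that of muscle, and GFAP that of astrocytes. Hepatic stellate cells are known for carrying all 3 in some species and states, and desmin, GFAP and nestin serve as stellate cell markers in liver. Nestin and synemin do not build filaments by themselves in most cells and join those of vimentin or desmin. Keratins polymerise only as pairs of an acidic type I chain such as KRT18 or KRT19 and a basic type II chain such as KRT8, and are otherwise known from hepatocytes and bile duct cells. Lamins A and B1 form the meshwork under the inner nuclear membrane.

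The labels and the data were not in accord for the siRNA target. AEBP1 was at 53.6, 48.7 and 25.1 CPM (a count scaled to the size of its library) in scrambled 1, 2 and 3 and at 29.7, 27.7 and 48.3 CPM in AEBP1 siRNA 1, 2 and 3, so the libraries labelled scrambled 3 and AEBP1 siRNA 3 went against their labels. Whether these libraries were exchanged was not tested. AEBP1 did not pass the test between the labelled groups, with a log2 fold change of -0.27 (SE 0.305, adjusted p = 0.991 by edgeR). The library labelled AEBP1 siRNA 1 stood apart on the first principal component, at 65.9 where the others lay between -17.3 and -5.74. Total counts were 34433510 to 49432960 per library, and 3 counts, the floor used here, were worth 0.061 to 0.0863 CPM. Every direction between groups below rests on the labels.

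Type III genes share coding sequence, which bears on which of them a read can be placed on. The stretches below hold the longest identical run between the coding sequences of vimentin and desmin in capitals, with 30 bases on each side in lower case (GENCODE release 29 transcripts). They are shown because vimentin was very abundant and desmin nearly absent.
VIM, coding bases 268 to 359: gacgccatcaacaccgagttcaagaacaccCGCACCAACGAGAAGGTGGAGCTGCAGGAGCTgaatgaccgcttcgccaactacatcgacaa
DES, coding bases 283 to 374: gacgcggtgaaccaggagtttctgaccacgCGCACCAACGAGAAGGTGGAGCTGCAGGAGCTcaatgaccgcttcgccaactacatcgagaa

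The run shared by vimentin and desmin was 32 bases long and lies where the coiled-coil rod begins, one of the most conserved parts of the family. The bases printed after it are nearly the same in both genes, so near identity extends beyond the exact run. Their coding sequences are 1401 and 1413 bases long. Between LMNA and LMNB1 the longest run was 14 bases, between KRT8 and KRT18 it was 15 bases and between KRT18 and KRT19 17 bases. The keratins have other near copies. GENCODE transcripts held 67 pseudogenes named for KRT18, of which the closest shared a run of 97 bases with its coding sequence, and 50 named for KRT8, of which 4 shared a run of at least 100 bases and the closest one of 133 bases. None of these pseudogenes had a row in the deposited table, so how their reads were placed is not known, and the levels of KRT8 and KRT18 are uncertain to that extent.

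Vimentin was by far the most abundant of the 10. In FPKM (fragments scaled to transcript length and library size, so that genes of different length can be compared), it was at 592, 557 and 450 in scrambled 1, 2 and 3 and at 617, 512 and 587 in AEBP1 siRNA 1, 2 and 3. The lowest value was that of scrambled 3 and the highest that of AEBP1 siRNA 1, and the groups overlapped. Its mean of 552 FPKM ± 61.5 (SD, n = 6) was rank 48 of 19974 Ensembl genes. The levels fell into an upper and a lower set. KRT18 followed at 95.5 FPKM ± 15.7, LMNA at 83.8 ± 9.81, LMNB1 at 63.8 ± 1.81, KRT8 at 15.7 ± 2.21 and SYNM at 8.06 ± 1.12 (each SD, n = 6). NES, the next in order, was 149.8-fold below SYNM, with a mean of 0.0538 FPKM. Among the upper 6 genes only KRT18 and LMNA had overlapping ranges, of 85.3 to 127 and 76.0 to 103 FPKM, with KRT18 above LMNA in 6 of 6 libraries.

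**Figure D1:**
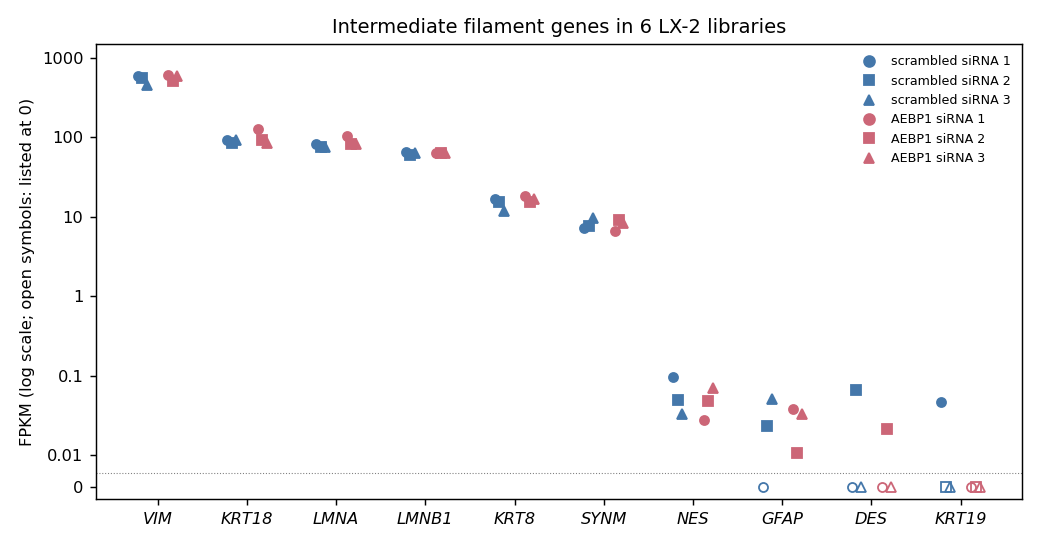
FPKM (log scale) of the 10 genes in each of the 6 libraries, ordered by mean, with colour for the group and symbol for the replicate. Open symbols at the bottom mark libraries in which a gene is listed at 0. Between SYNM, which lies between 6.62 and 9.60, and NES, which is at most 0.0955, no gene has a value.

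The other type III filaments were close to the counting floor. Desmin had 0, 9 and 0 counts in scrambled 1, 2 and 3 and 0, 3 and 0 counts in AEBP1 siRNA 1, 2 and 3, against 40190 to 58096 counts of vimentin. It was thus over the floor of 3 counts only in scrambled 2. GFAP had 0, 9 and 17 counts in scrambled 1, 2 and 3, and 10, 3 and 4 in AEBP1 siRNA 1, 2 and 3, so its groups overlapped as well. GFAP overlaps CCDC103 and FAM187A on the opposite strand in GENCODE, which had 17 to 89 and 0 to 61 counts. No source used here gives the strand setting of the counting, so reads in the overlap of GFAP with these genes cannot be told apart. The transcript length implied by the deposited count and FPKM of GFAP was 7561 to 7797 bases in 4 libraries and 2964 bases in AEBP1 siRNA 3, so the FPKM of GFAP does not rest on 1 length. At these depths neither desmin nor GFAP was compared between the groups, since both failed the filter on low counts.

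Nestin was detected in every library and was low throughout. It had 25, 16 and 9 counts in scrambled 1, 2 and 3 and 6, 12 and 19 counts in AEBP1 siRNA 1, 2 and 3. The highest and the lowest CPM, 0.609 and 0.173, were those of scrambled 1 and AEBP1 siRNA 1, and the groups overlapped. Nestin passed the filter, with a log2 fold change of -0.24 (95% interval -1.63 to 1.15, SE 0.606, adjusted p = 0.991 by edgeR). That interval covers fold changes from 0.322 to 2.22, so a change of 2-fold up or down was not excluded at this depth. The sign turned to 0.26 without scrambled 1 and to 0.046 without AEBP1 siRNA 1.

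Synemin, the longest transcript of the upper 6 genes with an implied length of 7675 to 7956 bases, was at 56.8, 59.0 and 76.0 CPM in scrambled 1, 2 and 3. In AEBP1 siRNA 1, 2 and 3 it was at 51.2, 68.8 and 65.8 CPM. Its highest value was in scrambled 3, where vimentin had its lowest, and its lowest in AEBP1 siRNA 1, where vimentin had its highest. The log2 fold change was -0.046 (95% interval -0.40 to 0.31, SE 0.154, adjusted p = 0.991 by edgeR). Without AEBP1 siRNA 1 it was 0.074 and without scrambled 3 it was 0.097.

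For vimentin the group means were 1131 ± 159 for scrambled-labelled and 1204 ± 119 for AEBP1 siRNA-labelled libraries (CPM, SD, n = 3 each). The log2 fold change was 0.091 (95% interval -0.21 to 0.39, SE 0.131, adjusted p = 0.991 by edgeR), which covers fold changes of 0.865 to 1.31. The largest departure was that of scrambled 3, at 953 CPM where the others were at 1068 to 1288 CPM. Without that library the estimate was -0.018, and -0.050 when replicate 3 was dropped from both groups. In 5 libraries vimentin and AEBP1 lay on the same side of their own means, above them in scrambled 1, scrambled 2 and AEBP1 siRNA 3 and below them in scrambled 3 and AEBP1 siRNA 2. AEBP1 siRNA 1 had low AEBP1 and the highest vimentin. Nestin also lay on the side of AEBP1 in all libraries but scrambled 2, where it was at 0.325 CPM against a mean of 0.348 CPM. The share of all genes with such agreement was not counted, and a link of vimentin to AEBP1 was not tested.

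The keratin pair KRT8 and KRT18 was transcribed at unequal levels, and KRT19 was not detected in 5 of 6 libraries. KRT18 was at 162, 149.7 and 160.0 CPM in scrambled 1, 2 and 3 and at 220.3, 158 and 152 CPM in AEBP1 siRNA 1, 2 and 3. Apart from AEBP1 siRNA 1, which was highest, the libraries thus lay within 149.7 to 162 CPM. The log2 fold change of 0.17 (95% interval -0.17 to 0.51, SE 0.148, adjusted p = 0.991 by edgeR) became -0.017 without that library. The 3 scrambled libraries had KRT8 at 39.2, 32.0 and 27.6 CPM, and the 3 of AEBP1 siRNA at 37.5, 35.6 and 35.6 CPM. Its values spread more among the scrambled libraries (SD 5.89 CPM) than among the others (SD 1.08 CPM), and the scrambled range enclosed that of the other group. The log2 fold change of KRT8 was 0.14 (95% interval -0.18 to 0.45, SE 0.137, adjusted p = 0.991 by edgeR). It was 0.28 without scrambled 1 and 0.025 without scrambled 3. KRT19, the type I keratin of bile duct cells, had 3 counts in scrambled 1 and 0 counts in the other 5 libraries, which allows up to 0.061 to 0.0863 CPM in those libraries (3 counts, counting error only). In RNA from whole cultures, keratin RNA in a few cells and a low level in all cells cannot be told apart.

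On the FPKM scale there was 0.185, 0.179 and 0.127 of KRT8 per KRT18 in scrambled 1, 2 and 3, and 0.143, 0.168 and 0.193 in AEBP1 siRNA 1, 2 and 3. The type I chain was thus the more abundant RNA in all 6 libraries, and the lowest and highest ratios both fell in replicates 3. The log2 ratio differed by 0.045 between the groups (exact permutation p = 0.8, two-sided, Benjamini-Hochberg adjusted p = 0.8 over the 3 ratios tested). Its sign turned to -0.13 without scrambled 3 and -0.060 without AEBP1 siRNA 3. KRT8 and KRT18 lie next to each other on chromosome 12 on opposite strands and overlap in GENCODE, so without a known strand setting reads in the overlap cannot be told apart. The implied transcript length of KRT8 ranged from 2082 to 2370 bases between libraries, while that of KRT18 stayed between 1733 and 1764 bases.

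Beside the keratins, markers of epithelium were detected in part. Of 16 markers of bile duct and other epithelium 6 passed the filter, 5 had at most 3 counts in every library, and the summed level of the list was 33.5 to 42.6 CPM under the scrambled label and 34.1 to 39.6 CPM under the AEBP1 siRNA label. The adhesion genes EPCAM and CDH1 had at most 5 counts in any library. KRT23, GRHL2 and CFTR were at 0 in all 6. KRT7, the usual type II keratin of bile ducts, was at 11.0 to 20.2 CPM, and SOX9, a duct transcription factor, had 510 to 813 counts. The tight junction gene CLDN4 had 124 to 203 counts. Sums here and below cover every gene of a list, also those that failed the filter. Of 16 hepatocyte markers 3 passed the filter. The list summed to 9.72 to 13.1 and 10.7 to 13.8 CPM, and APOB, APOC3, TTR, FGB, FGG and HP were at 0. Of 18 glial and neuronal markers 10 passed, summing to 107 to 117 CPM in scrambled and 104 to 121 CPM in AEBP1 siRNA libraries, with TUBB3 (42.7), MBP (33.9) and INA (16.9 mean CPM) the most abundant and S100B, AQP4 and OLIG1 at 0. Of 17 muscle markers 10 passed, summing to 211 to 228 and 221 to 235 CPM, with SMTN (107), TNNT1 (59.4) and TTN (40.7 mean CPM) the most abundant and MYOD1, MYOG, MYF5, MYH1 and TNNT2 at 0. Of 12 leukocyte markers 5 passed, summing to 19.8 to 24.9 and 23.2 to 26.9 CPM, with CD68 at a mean of 20.7 CPM and TYROBP at 0. Of 12 endothelial markers 5 passed, summing to 83.5 to 89.1 and 76.1 to 90.9 CPM, with FLT1 at 63.2 and TIE1 at 20.0 mean CPM and CLEC14A and LYVE1 at 0. The part of any of these genes in the filament values was not tested. Among 16 stellate cell markers 12 passed the filter, summing to 1804 to 1913 and 1705 to 1873 CPM, led by COL1A1. LRAT, the retinol-esterifying enzyme of quiescent stellate cells, was at 0, and DCN had at most 5 counts in any library.

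Summed over the 8 cytoplasmic genes, vimentin made up 82.2% ± 1.87 of FPKM (SD, n = 6), KRT18 14.2% ± 1.84, KRT8 2.32% ± 0.132 and SYNM 1.22% ± 0.301. Vimentin's share was 83.6%, 83.7% and 79.9% in scrambled 1, 2 and 3 and 80.2%, 81.5% and 84.1% in AEBP1 siRNA 1, 2 and 3. Scrambled 3 and AEBP1 siRNA 1 had the smallest vimentin and the largest KRT18 shares, at 16.3% and 16.5%. In scrambled 3 this went with the lowest vimentin level, and in AEBP1 siRNA 1 with the highest KRT18 level. The group means of the vimentin share, 82.4% ± 2.15 and 82.0% ± 1.99 (SD, n = 3 each), differed by less than the spread between libraries.

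**Figure D2:**
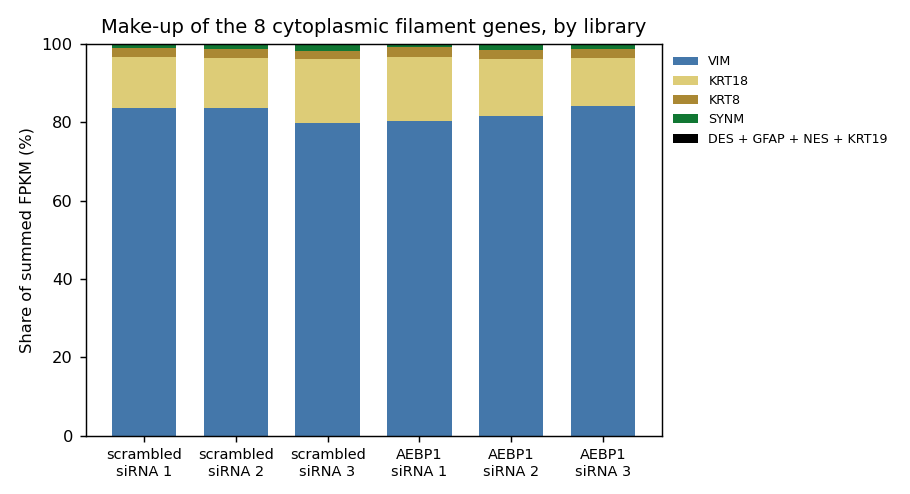
Share of the summed FPKM of the 8 cytoplasmic filament genes taken by each gene, in percent, one bar per library. Vimentin takes 79.9% to 84.1% in every library, and desmin, GFAP, nestin and KRT19 together are too small to be seen.

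LMNA, which encodes lamins A and C, was at 299.6, 272 and 271 CPM in scrambled 1, 2 and 3 and at 362, 292 and 293 CPM in AEBP1 siRNA 1, 2 and 3. AEBP1 siRNA 1 was the highest library, and scrambled 1 was above the remaining libraries of the other group, so the groups overlapped. The log2 fold change was 0.17 (95% interval -0.096 to 0.44, SE 0.116, adjusted p = 0.991 by edgeR), and 0.061 without AEBP1 siRNA 1. LMNB1, the B-type lamin found in most cell types, was at 217, 201 and 208 CPM in scrambled 1, 2 and 3, beside 206, 206 and 208 CPM in AEBP1 siRNA 1, 2 and 3. Its highest library exceeded its lowest by 1.08-fold, against 1.34-fold for LMNA and 1.35-fold for vimentin. The standard deviation of its log2 CPM over the 6 libraries was 0.036, and 0.646% of the 16250 genes tested had a smaller one. The log2 fold change of LMNB1 was -0.012 (95% interval -0.21 to 0.19, SE 0.0872, adjusted p = 0.991 by edgeR).

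The ratio of LMNB1 to LMNA on the FPKM scale was 0.796, 0.799 and 0.841 in scrambled 1, 2 and 3 and 0.626, 0.768 and 0.779 in AEBP1 siRNA 1, 2 and 3. All 3 libraries labelled AEBP1 siRNA were below all 3 labelled scrambled, with means of 0.725 ± 0.0854 and 0.812 ± 0.025 (SD, n = 3 each). The log2 difference was -0.17, with a two-sided exact permutation p = 0.1, the smallest that 3 against 3 can give, and an adjusted p of 0.3 over the 3 ratios. It did not pass the threshold of 0.05. Without AEBP1 siRNA 1 the difference was -0.069. The third ratio, nestin to vimentin, had a log2 difference of -0.36 (exact permutation p = 0.6, adjusted p = 0.8) and turned to 0.051 without AEBP1 siRNA 1.

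**Figure D3:**
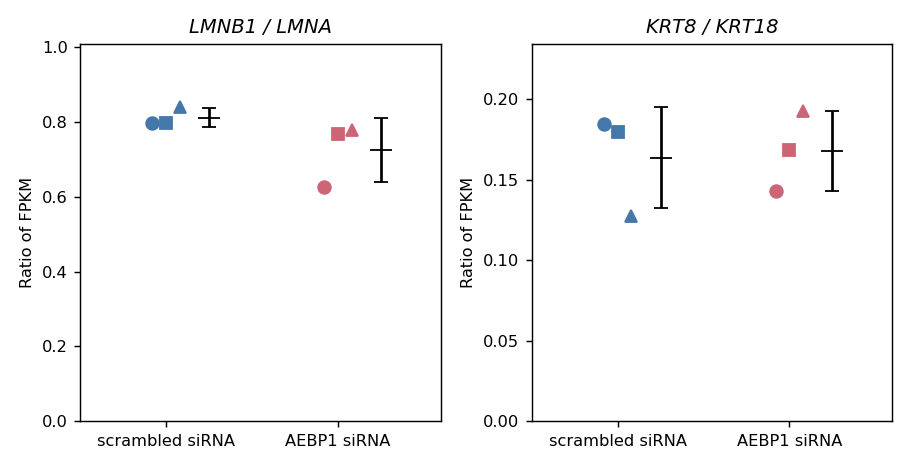
Ratio of FPKM of LMNB1 to LMNA (left) and KRT8 to KRT18 (right), one symbol per library (circle, square and triangle for replicates 1, 2 and 3), with the mean and SD of each group (n = 3) as a bar beside it. The lamin ratios of the AEBP1 siRNA libraries, 0.626 to 0.779, lie below the scrambled ones, 0.796 to 0.841, while the keratin ratios overlap.

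None of the 7 genes that passed the filter (VIM, NES, SYNM, KRT8, KRT18, LMNA and LMNB1) was called between the labelled groups at an adjusted p under 0.05, and 0 had an unadjusted p under 0.05 by edgeR's quasi-likelihood test. Over all 16250 genes 0.00615% were called and 1.33% had an unadjusted p under 0.05. DESeq2 and limma-voom also called 0 of the 10 and 0 of the 7 genes. The groups overlapped in CPM for 7 of 7 genes, where 5.93% of all genes did not overlap. The 95% interval of the fold change lay within 0.863 to 1.14 for LMNB1 and within 0.935 to 1.35 for LMNA, and within 0.758 to 1.43 for the others except nestin. A p that misses the threshold does not show that the groups are alike, and changes inside these intervals were not excluded here.

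**Figure D4:**
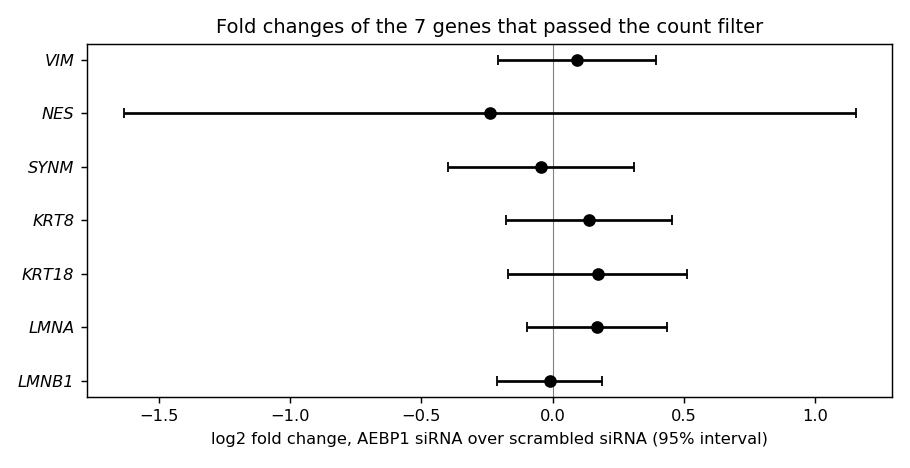
Log2 fold change of AEBP1 siRNA over scrambled siRNA for the 7 genes that passed the filter on low counts, with 95% intervals from edgeR. All 7 intervals include 0, and that of nestin, from -1.63 to 1.15, is the widest.

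Single libraries stood out for some genes. In log2 units from each gene's mean over the 6 libraries, AEBP1 siRNA 1 was at 0.41 for KRT18, 0.29 for LMNA and -0.29 for SYNM. Scrambled 3 was at -0.28 for vimentin, -0.32 for KRT8 and 0.29 for SYNM. LMNB1 stayed between -0.048 and 0.063 in all 6. Some partner genes also stood apart in AEBP1 siRNA 1, and so did genes that are not partners. The linker DST was at 172 CPM there and at 370.4 to 579.5 CPM in the other libraries, MACF1 at 183 against 344 to 430.0 CPM, and SYNE2, a nuclear envelope spectrin-repeat protein, at 159 against 313 to 481 CPM. The chaperone HSPA8 was highest there, at 1104 against 782 to 893 CPM. The linker TCHP did not stand apart, at 68.1 against 66.7 to 71.9 CPM. The muscle marker TTN did, at 17.5 against 37.6 to 52.8 CPM. How many of all genes stood apart in this library was not counted, so none of this is particular to filament partners. The part of this library's difference from the others in the filament values was not tested.

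**Figure D5:**
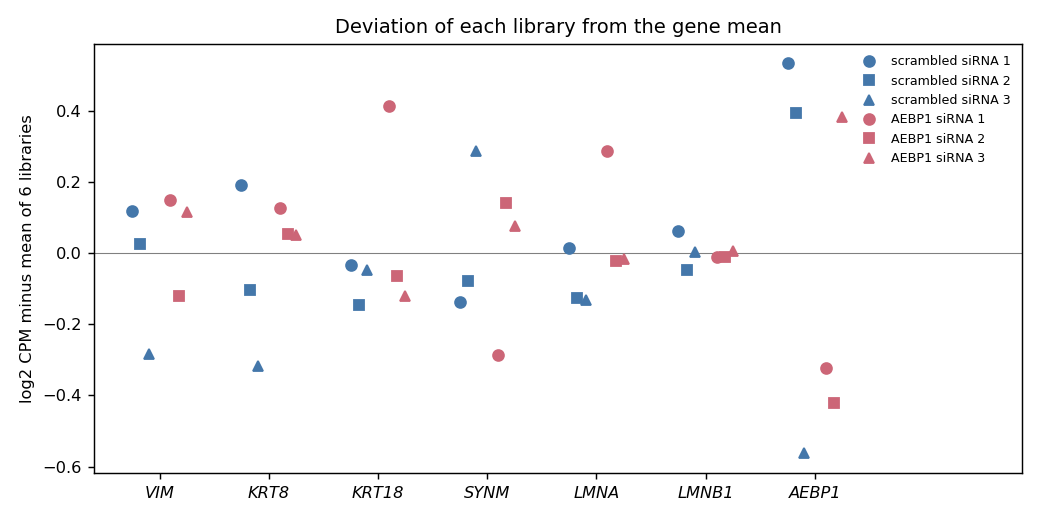
Log2 CPM of each library minus the mean of the 6 libraries, for the 6 abundant filament genes and AEBP1, with colour for the group and symbol for the replicate. AEBP1 siRNA 1 is the top point of KRT18 (0.41) and LMNA (0.29) and the lowest of SYNM (-0.29), and the points of LMNB1 lie together near 0.

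The genes whose values over the 6 libraries were most like those of a filament gene were found by the root mean square difference of centred log2 CPM among the 11055 genes that averaged 5 CPM or more. For vimentin they were MGAT4B, EEF1AKMT4 and SMARCD2, with differences of 0.0241, 0.0268 and 0.0294 and a median of 0.197 over all these genes. For KRT18 they were CFL1, FLOT1 and STMN1 (0.0137, 0.0161 and 0.0163, median 0.215), and for LMNA they were MRPL9, DUSP11 and DOK1 (0.0153, 0.0154 and 0.0161, median 0.177). All rest on the same 6 libraries and share their depth.

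On a chosen list of 52 intermediate filament genes, which leaves out the hair keratins and is not the whole family, these 10 held 90.8% of the summed mean FPKM. Of the 52, 13 averaged 1 FPKM or more and 14 were at 0 in every library. LMNB2, the other B-type lamin, was rank 5 at 45.2 FPKM, and KRT10, a keratin of the epidermis, rank 6 at 16.8 FPKM. The remaining genes over 1 FPKM were KRT7 (8.18), the neuronal filament internexin INA (4.65), KRT80 (2.38), KRT13 (1.39) and the neurofilament light chain NEFL (1.13). INA, at 622 to 769 counts, was thus more abundant than its relative nestin in all 6 libraries. LMNB2 had group means of 239 ± 6.91 CPM (scrambled) and 236 ± 10.4 CPM (AEBP1 siRNA; SD, n = 3 each), a log2 fold change of -0.022 that became 0.014 without AEBP1 siRNA 1. KRT80 was at 13.1, 15.0 and 14.5 CPM in scrambled 1, scrambled 2 and AEBP1 siRNA 3. It was at 5.38, 7.45 and 7.12 CPM in scrambled 3 and AEBP1 siRNA 1 and 2. That is the same division of the libraries as for AEBP1 itself, a likeness noted after its values were seen. The share of all genes with this division was not counted. Between the labelled groups 5.93% of all genes did not overlap. Whether KRT80 follows AEBP1 was not tested.

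The other genes that build, bind, process or regulate these filaments showed no called difference. Of 109 genes in 10 lists, 74 passed the filter, 36 with higher and 38 with lower estimates under the AEBP1 siRNA label. Their median log2 fold change was -0.016, where that of all genes tested was -0.0023, with 8219 of 16250 lower. Without AEBP1 siRNA 1 the split turned to 48 higher and 27 lower of 75, with a median of 0.027. Over all genes tested without that library, 8271 of 16660 were higher and 8389 lower, with a median of -0.00095. None of the 74 was called by edgeR, DESeq2 or limma-voom, and 1 had an unadjusted p under 0.05 by edgeR. That gene was BFSP1, a lens filament protein, with 26, 33 and 28 counts in scrambled 1, 2 and 3 against 70, 38 and 36 in AEBP1 siRNA 1, 2 and 3 (adjusted p = 0.991 by edgeR). Its log2 fold change of 1.00 was 0.54 without AEBP1 siRNA 1. The groups did not overlap for 3 of the 74, BFSP1, PRPH (peripherin) and ESRP2 (an epithelial splicing regulator), all higher under the AEBP1 siRNA label. Over all genes 3.03% were higher and 2.90% lower without overlap. All 3 had 70 counts or fewer in every library.

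Estimates were higher for 2 of 3 tested type III and IV filaments outside the 10 genes, 3 of 5 type I keratins, 3 of 6 type II keratins and 1 of 2 lens filaments and lamins. Among linkers of cytoplasmic filaments 7 of 9 tested genes had lower estimates (median log2 fold change -0.094), and without AEBP1 siRNA 1 it was 3 of 10 with a median of 0.028. Plectin (PLEC), which ties filaments to adhesions and to actin, had group means of 495 ± 25.9 CPM (scrambled) and 464 ± 107 CPM (AEBP1 siRNA; SD, n = 3 each), and the pairs of means that follow are in this order. Without AEBP1 siRNA 1 the second mean of PLEC was 523 CPM, above the first. The chaperones of filaments had 3 of 5 higher estimates, and the abundant HSPA8 was at 843 CPM ± 53.1 and 924 CPM ± 164, or 834 CPM without AEBP1 siRNA 1. Lamin processing had 5 of 6 higher estimates with a median of 0.028. ZMPSTE24, the protease that matures prelamin A, was at 97.0 CPM ± 5.46 and 97.4 CPM ± 2.42, and FNTA and FNTB, the subunits of the farnesyltransferase, had log2 fold changes of 0.016 and -0.13. Partners in the lamina and nuclear envelope had 7 higher and 8 lower estimates of 15 (median -0.023), led by SYNE2, NUP153 and TMPO. Kinases known to phosphorylate filaments had 4 higher and 8 lower of 12 (median -0.056), with PRKCA at 278 CPM ± 19.7 and 249 CPM ± 63.1, or 285 CPM without AEBP1 siRNA 1. Factors that regulate filament genes had 6 higher and 5 lower of 11 (median 0.00075). Among these STAT3, an activator of GFAP and vimentin, was at 189.9 CPM ± 16.0 and 190.0 CPM ± 11.5, ZEB2, a repressor of epithelial genes, was at 147 CPM ± 3.79 and 132 CPM ± 30.7, or 149.7 CPM without AEBP1 siRNA 1, and SNAI1, a repressor of epithelial genes as well, had a log2 fold change of 0.24 (SE 0.140, adjusted p = 0.991 by edgeR). Leaving out AEBP1 siRNA 1 also turned the medians of the chaperones (-0.016), lamin processing (-0.0088), the envelope partners (0.029) and the kinases (0.030), and that of the regulating factors was then 0.035, with 9 of 11 higher.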

How the data were processed

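The authors deposited 1 table that gives each gene's raw count and FPKM in the 6 libraries, per the file headers. The submitters' processing notes name hg19 as build. Sources used here do not state the aligner, counter, annotation or strand setting. Values were present on 24789 lines. The 17 lines without values were left out, and 27 symbols that had become dates were restored by gene ID. The authors' FPKM values served only for comparing levels between genes, for ratios and in 1 alternative.

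From the counts, edgeR 4.0.16 (R 4.3.3) tested the 16250 genes that passed filterByExpr by its quasi-likelihood test after TMM scaling. P-values were adjusted by Benjamini-Hochberg over all 16250, with a threshold of 0.05. Standard errors follow from the estimate and its F statistic. DES, GFAP and KRT19 failed the filter, and 7 of the 10 genes passed. Ratios were compared by exact two-sided permutation. Coding runs came from GENCODE 29 transcripts. Between any pair of libraries the chi-square per degree of freedom was at least 7.79, so none was counted as a repeat.

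The genes and lists were chosen with earlier results of these data known. The rule named the 10 genes and AEBP1, of each list up to 3 of the most abundant genes and 2 with the smallest p, any called gene, and the 3 genes most like VIM, KRT18 and LMNA. Some of these are not printed. The alternatives were a replicate block, leaving out each library, leaving out both replicates 3 (also together with AEBP1 siRNA 1), upper quartile or DESeq2 scaling, all genes unfiltered, DESeq2 1.42.0, limma-voom (limma 3.58.1), limma on log2(FPKM + 1), and count-based ratios or ratios with a pseudocount of 1.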

Additional observations from a re-analysis of the deposited data

How the results depend on the processing

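The number of filament genes called was 0 under all 15 alternatives, and so was that of list genes. Over all genes, against 1 called, no filter gave 3, DESeq2 6, limma-voom 2, and single libraries left out 0 to 2. With replicate 3 of both groups and AEBP1 siRNA 1 left out it was 249, where the spread of the 1 AEBP1 siRNA library is taken from the scrambled ones. In that fit the log2 fold changes were -0.54 for NES, 0.0020 for KRT8, 0.025 for KRT18, 0.034 for LMNA and -0.019 for LMNB1. The replicate block gave 2 genes and no filament gene. Deviations of same-numbered libraries from their group means had correlations of 0.096, -0.0078 and -0.10. Each group mean includes the library itself, and AEBP1 siRNA 1 stood apart and enters the deviations of its whole group. These correlations therefore cannot settle whether the libraries were paired. For each reversal the cause was not tested. Without single libraries, log2 fold changes ran from -0.018 to 0.18 for VIM, -0.61 to 0.26 for NES, -0.13 to 0.097 for SYNM, 0.025 to 0.28 for KRT8, -0.017 to 0.27 for KRT18, 0.061 to 0.22 for LMNA and -0.038 to 0.017 for LMNB1. The log2 ratio differences ran from -0.13 to 0.16 for KRT8 to KRT18, -0.23 to -0.069 for LMNB1 to LMNA and -0.65 to 0.051 for NES to VIM. With replicate 3 of both groups left out, VIM was at -0.050, SYNM at 0.052 and KRT8 to KRT18 at -0.23, and without AEBP1 siRNA 1 too they were at -0.19, 0.25 and -0.11. LMNB1 was at 0.0045 with upper quartile scaling and 0.0073 with log2(FPKM + 1). Depth limits DES, GFAP, KRT19 and NES, which had 25 counts or fewer in every library.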
